A study of Mus musculus with 52 samples.

Results

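Chromatin accessibility was examined at the promoters of the cytosolic ribosomal protein genes, chosen by gene symbol: Rpl or Rps followed by a number, or Rpsa, Rplp0, Rplp1 and Rplp2, with the Rps6 kinases left out. There were 74 such promoters for 73 genes among the 20633 promoters measured, which is 0.359% of them. Of these 74, 29 belong to proteins of the small (40S) subunit and 45 to proteins of the large (60S) subunit. Rpl3l has 2 intervals. A further 12 protein-coding genes with matching symbols were not analysed here, namely Rpl10l, Rpl12, Rpl24, Rpl27, Rpl32l, Rpl34, Rpl36, Rpl37a, Rpl41, Rps2, Rps27 and Rps29.

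Accessibility was measured in mouse embryonic stem cells (mESCs) by ATAC-seq with a calibration (cATAC-seq), in which the transposase Tn5 tags open DNA and Drosophila SG4 cells mixed in before tagging provide a fixed reference. All 4 lines carry CreERT2, a recombinase that 4-hydroxytamoxifen (800 nM for 96 h) activates, so untreated cells (UNT) and tamoxifen-treated cells (TAM) of a line share the same floxed alleles. Kdm2a/b-JmjC fl/fl cells (3 UNT and 3 TAM libraries) lose the JmjC demethylase exons and with them the long forms of KDM2A and KDM2B, while short forms remain. Kdm2a/b-CXXC fl/fl cells (4 and 4) lose the exon for the CpG island-binding ZF-CxxC domain of both proteins, and the lines Kdm2a-CXXC fl/fl (3 and 3) and Kdm2b-CXXC fl/fl (3 and 3) lose that of the protein they are named for. The Kdm2a-CXXC line was made as a clone by CRISPR editing of Rosa26::CreERT2 cells. The Kdm2a/b-CXXC line was made in the same way from the Kdm2b-CXXC line. No line with CreERT2 but without floxed alleles was among the samples, so an effect of tamoxifen or CRE and an effect of the deletion cannot be told apart.

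The ribosome is built from ribosomal RNA and about equal amounts of each ribosomal protein, so the genes of these proteins are transcribed strongly and together in growing cells. Their promoters typically lie in CpG islands, lack a canonical TATA box and start transcription at a C within a run of pyrimidines. That run becomes the 5′ terminal oligopyrimidine (TOP) sequence of the mRNA, through which its translation responds to growth signals. KDM2A and KDM2B bind unmethylated CpG through their ZF-CxxC domains, and the comparisons below ask how open these CpG-rich promoters are and whether loss of the KDM2 proteins alters that.

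A level is given here in calibrated reads: the reads in the 400 bp interval of a promoter divided by the spike-in size factor of the library. The 26 libraries held 1.49 to 3.03 M promoter reads, with a median of 135 to 266 reads per ribosomal protein promoter against 58 to 108 per promoter over all. Of 12 pluripotency genes 10 had an interval, with a median untreated level of 169 calibrated reads and 7 of the 10 above the median of all promoters. All 7 fibroblast genes had an interval, with a median of 14, and none was above the median of all promoters. Endoderm genes had a median of 60.6, with 1 of 4 above, and neural genes a median of 106, with 2 of 3 above. Accessibility at a promoter does not report the deletion of an internal exon, so these values do not check the loss of KDM2A or KDM2B. In bulk samples a lower level can come from fewer cells with an open promoter or from less cutting in each cell, and these cannot be told apart.

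Of the 74 promoters, 68 (91.9%) were CpG-rich (in the interval, GC content 0.5 or more and CpG observed over expected 0.6 or more), against 54.6% of all promoters. The exceptions were both Rpl3l intervals, Rpl7, Rpl22, Rpl4 and Rps4x. Over the 74 promoters the median GC content, 0.618, was lower than that of all CpG-rich promoters (0.665). The median CpG ratio of the 74, 0.923, was higher (0.853). Among the genes, 28 host small nucleolar RNAs in their introns, and 10 intervals (13.5%, against 9.69% of all) overlap that of another gene, so that reads at Rps27a and Clhc1, Rpl36al and Mgat2, Rpl15 and Nkiras1, Rpl35a and Iqcg, Rps28 and Ndufa7, Rps18 and Vps52, Rpl7a and Med22, Rpl9 and Lias, Rpl18 and Sphk2, and Rps25 and Trappc4 are partly shared. Processed copies of ribosomal protein genes are common in the genome, and reads that map more than once were discarded before counting. Of the 80 bp windows tiled along the 74 intervals, some matched another place in the genome over at least 76 bases in 10 intervals. These windows made up at most 33.3% of an interval, at Rplp1, the stalk protein, and 18.2% at Rpl15.

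A RefSeq promoter sequence (GRCm38.p6, the same build as mm10) whose start lay at most 200 bp from the middle of the interval was matched for 55 of the 74 promoters and for 15518 of all. A pyrimidine tract, here C followed by at least 4 further C or T at the annotated start itself, was present at 11 of the 55 (20%), at 2.35% of all 15518 and at none of the 61 mitochondrial ribosomal protein promoters with a sequence. When the tract could begin up to 5 bases either side of the start, 24 of the 55 (43.6%), 19.2% of all and 15 of the 61 mitochondrial ribosomal protein promoters (24.6%) had one. The 5 longest tracts are given because they show this feature most plainly, with 50 bases before and 20 bases from the annotated start, 5′ to 3′ on the strand of the gene, with the tract in capitals. They lie at chr14:18270967-18271036 (minus strand), chr2:39005112-39005181 (minus), chr17:27635225-27635294 (minus), chr4:86857348-86857417 (minus) and chr17:33955646-33955715 (minus), in that order.
Rpl15: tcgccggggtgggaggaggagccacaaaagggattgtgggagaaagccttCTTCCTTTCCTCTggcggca
Rpl35: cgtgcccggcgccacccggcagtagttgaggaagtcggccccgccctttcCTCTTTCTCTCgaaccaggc
Rps10: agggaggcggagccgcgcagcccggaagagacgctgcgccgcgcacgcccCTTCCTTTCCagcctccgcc
Rps6: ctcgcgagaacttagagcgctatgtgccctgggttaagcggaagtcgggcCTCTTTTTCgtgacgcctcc
Rps18: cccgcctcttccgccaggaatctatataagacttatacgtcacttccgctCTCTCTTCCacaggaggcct

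The tracts were 5 to 13 bases long over the 11 promoters, and the other 6 belong to Rpl38, Rps21, Rps15a, Rplp2, Rpl28 and Rpl14. The base at the annotated start was C at 18 of the 55 ribosomal protein promoters (32.7%) and at 14.4% of all. Short motifs were also searched on both strands of the window from 250 bases before to 50 after the start. A match to one can overlap a match to another, and CTTTCC can lie inside a pyrimidine tract. CTTTCC was found in 43.6% of the ribosomal protein promoters against 26.3% of all and 24.5% of CpG-rich ones. CCGGAAG, a core of the ETS family, was found in 41.8% against 13% and 20.2%, and it was nearly as common at mitochondrial ribosomal protein promoters, with 37.7%. GGGCGG, the SP1 motif, was present in 58.2%, above its share among all promoters (51.7%) and below that among CpG-rich ones (75.5%). AAGATGGC, the YY1 motif, was found at 5 of the 55 (9.09%, against 3.53% of all and 18% of mitochondrial ribosomal protein promoters), at Rpl13a, Rpl22, Rpl35a, Rpl7l1 and Rps15a. TATAAA was found at 6 promoters (10.9%, against 10.3% of all and 5.09% of CpG-rich ones). GCGCATGC, the NRF1 core, was found only at Rpl5 among the 55 (1.82%, against 4.01% of all and 6.37% of CpG-rich ones). TATAAA at the usual place, 20 to 40 bases before the start, was found only at Rpl22l1 (1.82%, against 2.26% of all and 0.944% of CpG-rich ones).

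Pairs of a ribosomal protein gene and its paralogue gave a second view of sequence. Rpl39 and Rpl39l, and Rpl36a and Rpl36al, are shown in the same window because a paralogue was far below its partner in level in the first pair and not in the second. None of the 4 has a pyrimidine tract at its annotated start, so there are no capitals. They lie at chrX:37085203-37085272 (minus strand), chr16:10170178-10170247 (plus), chrX:134585604-134585673 (plus) and chr12:69184048-69184117 (minus).
Rpl39: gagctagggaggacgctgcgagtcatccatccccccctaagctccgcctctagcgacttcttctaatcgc
Rpl39l: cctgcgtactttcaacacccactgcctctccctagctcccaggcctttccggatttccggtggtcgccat
Rpl36a: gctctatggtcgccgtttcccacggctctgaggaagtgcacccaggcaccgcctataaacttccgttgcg
Rpl36al: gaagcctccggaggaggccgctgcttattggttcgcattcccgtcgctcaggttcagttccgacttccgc

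In untreated cells the ribosomal protein promoters were open, and most lay in a narrow range. Averaged over the lines, their median level was 180 calibrated reads (quartiles 148 and 210), against 78 for all promoters and 138 for CpG-rich ones. In each line their median stood between the 81.5th and 82.8th percentile of all promoters, and 69 of the 74 were above the median of all promoters when averaged over the lines. They were not at the top of the range: 17 of the 74 (23%) were among the highest 10%, and the highest promoter of all, at 805 calibrated reads, was well above the highest ribosomal protein promoter, at 319. Each line has its own table and its own calibration, so levels were compared within a line and averaged only to order the genes.

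Other genes of protein synthesis had similar levels. The 74 mitochondrial ribosomal protein promoters had a median of 144, the 61 translation factor promoters 149 and the 42 promoters of ribosome assembly genes 162. In all 26 libraries the median of the cytosolic ribosomal protein promoters was the highest of these, by 1.13 to 1.32 times over the mitochondrial ribosomal proteins, 1.02 to 1.24 times over the translation factors and 1.01 to 1.17 times over the assembly genes. It was 1.23 to 1.41 times that of the CpG-rich promoters. The quartiles of these groups overlapped widely in each line.

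**Figure D1:**
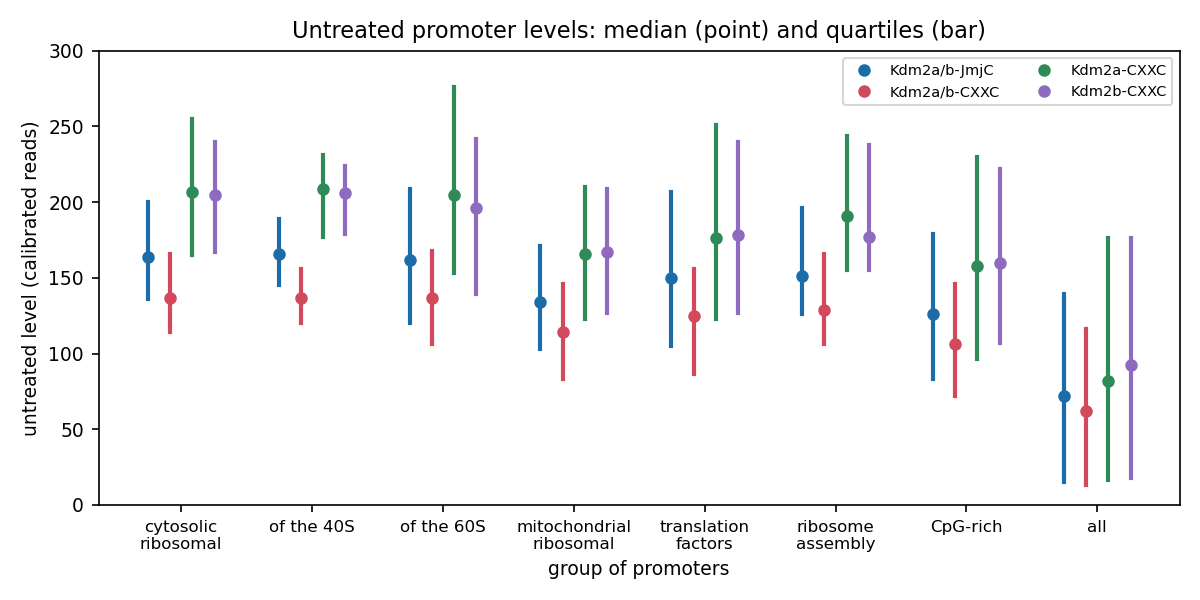
Untreated level in calibrated reads per 400 bp promoter interval (vertical axis) for groups of promoters (horizontal axis) in each of the 4 lines, with the median as a point and the quartiles as a bar. In each line the cytosolic ribosomal protein promoters have a higher median than CpG-rich promoters, and the quartiles overlap.

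The subunits had similar medians, 183 for the 40S and 175 for the 60S, and their quartiles overlapped. The highest mean was that of Rps27a, whose gene encodes a ubiquitin fusion. Rps27a averaged 319 calibrated reads, with 280 ± 9.19 (SD, n = 3) in Kdm2a/b-JmjC, 242 ± 23.1 (n = 4) in Kdm2a/b-CXXC, 404 ± 46.3 (n = 3) in Kdm2a-CXXC and 351 ± 136 (n = 3) in Kdm2b-CXXC. Its interval overlaps that of Clhc1, so part of its signal is shared.

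**Figure D2:**
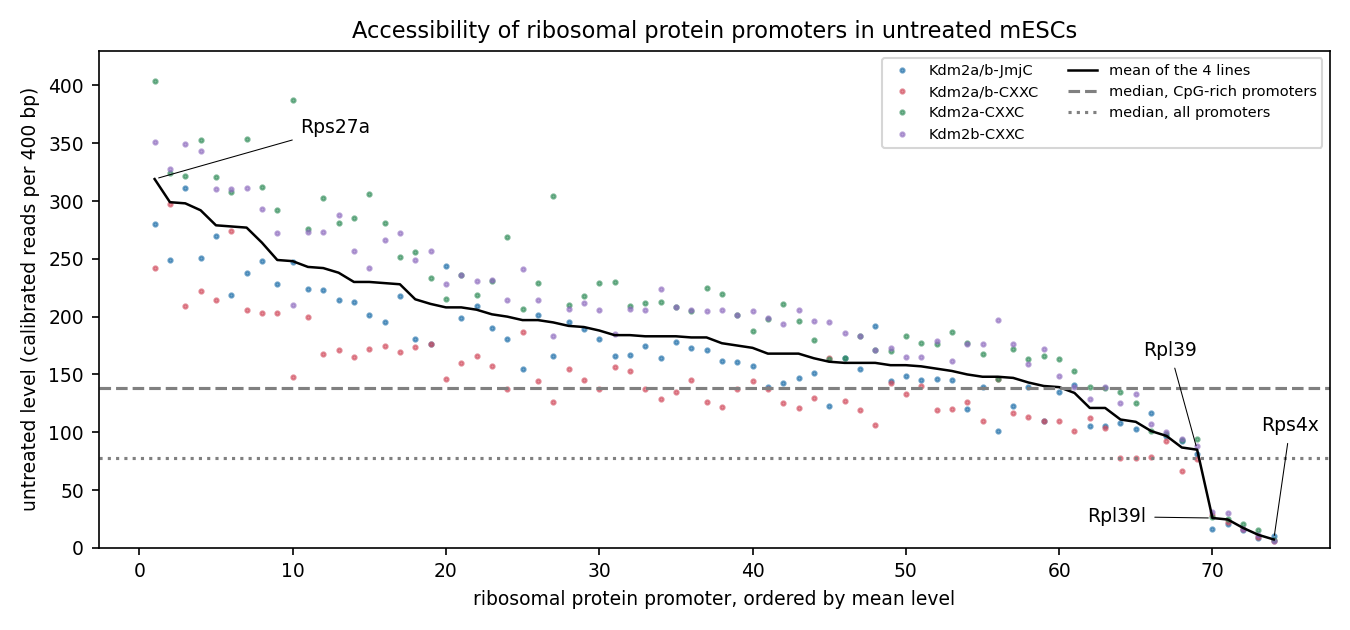
Untreated level in calibrated reads per 400 bp (vertical axis) for the 74 ribosomal protein promoters ordered by their mean over the lines (horizontal axis), with a point per line and a line for the mean. 69 promoters fall gradually from 319 to 84.9, and 5 lie at 25.8 or below.

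Among the named proteins of the small subunit, Rps6, the target of the S6 kinases, averaged 202 calibrated reads, and Rps3, which lines the mRNA entry channel, averaged 197. Rps19, which is mutated in Diamond-Blackfan anaemia, averaged 184, and Rpsa, also known as the laminin receptor, 183. All 4 were within the middle of the range. On the large subunit, Rpl3, near the peptidyl transferase centre, averaged 243, Rpl11 182 and Rpl5 158, the latter pair being the proteins that bind MDM2 with 5S ribosomal RNA. Of the stalk proteins, Rplp0 averaged 228, Rplp1 158 and Rplp2 150. Rpl10, at 111, Rpl7, at 101, and Rpl39, at 84.9, were at the lower end, although still above the median of all promoters. Of genes of cytosolic ribosomal proteins outside the symbol rule, Fau averaged 149 and Rack1 250, within the same range.

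The order of the promoters was alike in the lines. Spearman's rho over the 74 promoters was 0.859 to 0.937 between pairs of lines, and 0.826 to 0.922 over the 69 promoters at 50 calibrated reads or more. These are descriptions over promoters that share libraries. Levels also went with base composition among those 69. The 12 with a GC content under 0.55 had a median of 130, the 41 between 0.55 and 0.65 a median of 188, and the 16 at 0.65 or over a median of 183. The 28 genes that host small nucleolar RNAs had a median of 190 and the other 41 a median of 173. Of the 69, those with a sequence and CTTTCC had a median of 197 (23 promoters), against 166 without it (28 promoters). With a pyrimidine tract at the start the median was 192 (11 promoters), against 174 without (40 promoters). None of these splits was tested, and all of the groups overlapped in level.

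Below a gap, 5 intervals had low levels, and in all 26 libraries they were the 5 lowest. These were Rpl39l, with a mean of 25.8 calibrated reads, Rpl22 with 24.5, the Rpl3l intervals with 17.2 and 11.2, and Rps4x with 7.24. The next promoter up was Rpl39, with 84.9. Rpl3l is the paralogue of Rpl3 found mainly in muscle and Rpl39l that of Rpl39 found mainly in testis. The Rps4x interval (chrX:102188172-102188571) has its centre 1020 bp downstream of the annotated start, so its level does not describe the promoter of that gene. The Rpl22 interval sits at the start of a variant transcript, and the level at the other annotated start of Rpl22 was not analysed here. Leaving out these 5, the median rose from 180 to 183.

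Some paralogues were at least as open as their partners on average and others were far less so. Rpl36al was higher than Rpl36a in 22 of 26 libraries, with means of 230 and 160, and Rpl7l1 was higher than Rpl7 in 20, with means of 121 and 101. Both ratios ranged across 1, from 0.85 to 2.1 and from 0.591 to 2.1. The 4 libraries with Rpl36al below Rpl36a were all of Kdm2a/b-JmjC. In that line the means of Rpl36al and Rpl36a were 213 and 192 in UNT cells and 162 and 181 in TAM cells. Rpl7l1 had lower means than Rpl7 there, with 105 and 117 in UNT and 88.9 and 112 in TAM cells. In contrast, Rpl39l was lower than Rpl39 in all 26 libraries, 3.29-fold by the means. The Rpl3l intervals were 14.1-fold and 21.7-fold below Rpl3. Rpl22l1 averaged 195 calibrated reads and Rps27l, a p53 target, 173. The intervals all have the same length, but other differences between them remain. The Rpl36al interval shares 310 of its 400 bp with that of Mgat2. Rpl36a and Rpl39 lie on chromosome X and Rpl7 on chromosome 1. Promoters of both chromosomes differed between lines in their share of reads, as given below.

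After tamoxifen treatment the ribosomal protein promoters had median changes close to those of all promoters. The test was limma on log2(calibrated reads + 1) within each line, with Benjamini-Hochberg adjustment over all promoters tested, and to be called a promoter needed an adjusted p below 0.05 together with a change of more than 1.4-fold. None of the ribosomal protein promoters was called in any line. In Kdm2a/b-JmjC, 0 of 74 were called, with 0.0757% of all promoters called. In each of the other lines 0 of 73 were called, with 0% of all. edgeR and DESeq2 on the recovered reads also called 0 of them in each line. Over all 17174 promoters tested in Kdm2a/b-JmjC they called 113 and 12, and in the other lines 0. The p-values measure the spread between these libraries, which the labels give as biological replicates.

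The median log2 fold change of the ribosomal protein promoters was -0.18 after loss of the JmjC exons (Kdm2a/b-JmjC). It was 0.10 for Kdm2a/b-CXXC, -0.18 for Kdm2a-CXXC and 0.077 for Kdm2b-CXXC. Over all promoters tested it was -0.21, 0.087, -0.18 and 0.10, in the same order of lines. When libraries were scaled to their own promoter reads by TMM, which sets the bulk near 0, the medians became 0.028, 0.013, -0.0042 and -0.026. TMM scaling moved the median of all promoters from -0.21 to -0.0067 in Kdm2a/b-JmjC and from -0.18 to -0.011 in Kdm2a-CXXC, and the direction of the ribosomal protein promoters in Kdm2a/b-JmjC and Kdm2b-CXXC flips with it. Single libraries moved every one of these medians. In Kdm2a/b-JmjC the median was -0.11 without TAM replicate 2. For Kdm2a-CXXC the median was -0.079 without TAM replicate 1. In Kdm2a/b-CXXC it was -0.0019 without TAM replicate 1 and 0.18 without TAM replicate 4. In Kdm2b-CXXC it was 0.27 without UNT replicate 1, -0.055 without UNT replicate 2, and -0.12, 0.24 and 0.17 without TAM replicates 1, 2 and 3.

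**Figure D3:**
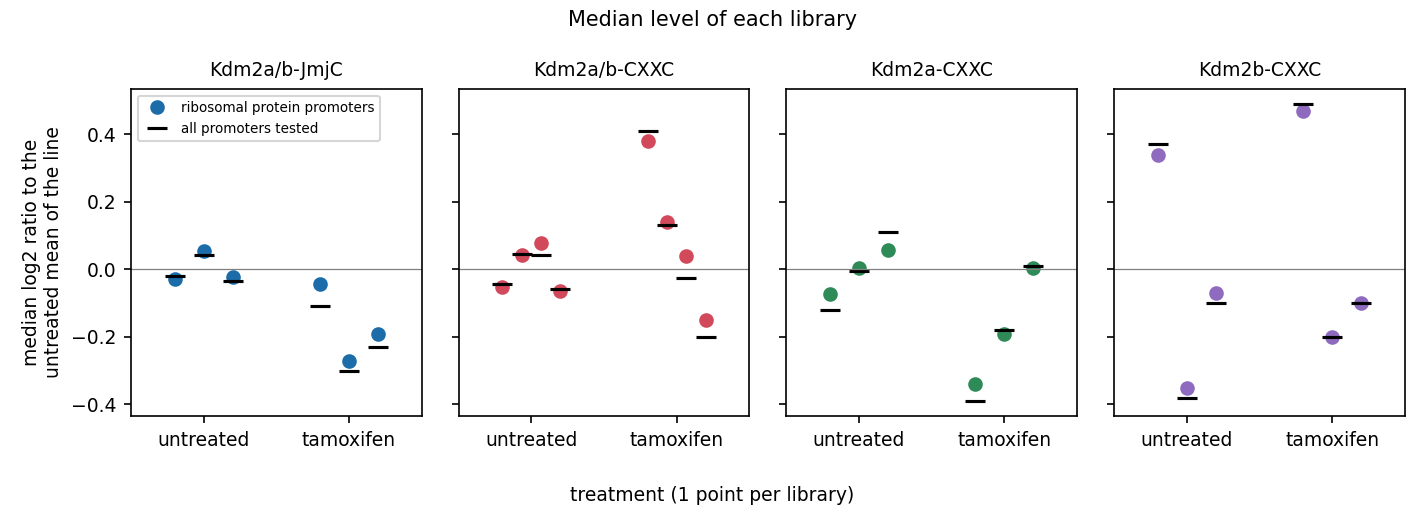
Median log2 ratio of each library to the untreated mean of its line (vertical axis) for the ribosomal protein promoters (points) and all promoters tested (dashes), by treatment (horizontal axis). The point follows the dash in all 26 libraries, with the largest gap 0.066, in Kdm2a/b-JmjC TAM replicate 1.

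The share of all promoter reads that fell in these 74 intervals was nearly constant, from 0.63% to 0.696% over the 26 libraries. In Kdm2a/b-JmjC it was 0.655% ± 0.00784 (SD, n = 3) in UNT and 0.669% ± 0.00405 (n = 3) in TAM cells, and the libraries did not overlap (0.648% to 0.663% against 0.664% to 0.672%). In Kdm2a/b-CXXC it was 0.674% ± 0.00593 (n = 4) and 0.678% ± 0.0159 (n = 4), in Kdm2a-CXXC 0.659% ± 0.0216 and 0.671% ± 0.0214 (n = 3), and in Kdm2b-CXXC 0.647% ± 0.0152 and 0.647% ± 0.00238 (n = 3). In these 3 lines UNT and TAM libraries overlapped.

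**Figure D4:**
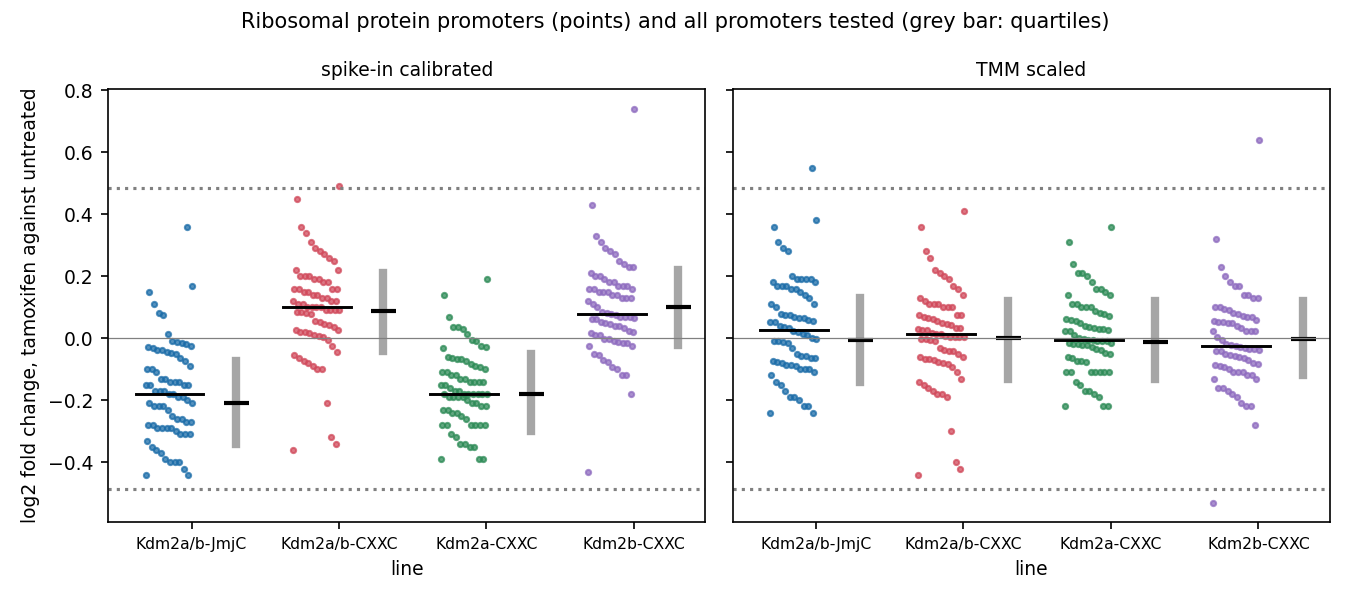
Log2 fold change of tamoxifen against untreated cells (vertical axis) for each ribosomal protein promoter tested (points, median as a line) beside the quartiles and median of all promoters tested (grey bar and dash) in each line (horizontal axis), for calibrated reads on the left and TMM-scaled reads on the right. Dotted lines mark 1.4-fold, and TMM scaling brings the medians to between -0.026 and 0.028.

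In Kdm2a/b-JmjC cells 67 of the 74 promoters (90.5%) had a lower mean log2 level after tamoxifen, against 83.4% of all promoters tested and 91.1% of CpG-rich ones. At an unadjusted p under 0.05, 18 of the 74 (24.3%) were lower, as were 20.3% of all promoters tested. None was higher at that threshold, against 0.262% of all. The 18 were 8 of the 40S and 10 of the 60S, with log2 fold changes from -0.44 to -0.27. With edgeR and DESeq2, 17 and 11 were lower at an unadjusted p under 0.05, with 20.7% and 14.9% of all. With TMM scaling none was lower, against 3.01% of all, and 4 were higher, against 2.62%. The count of lower promoters was 6 without UNT replicate 2, 10 without TAM replicate 2 and 9 without TAM replicate 3, where the shares of all were 12.3%, 13.1% and 14%. The 95% interval lay within 1.4-fold either way at 33 of the 74, and at 57 with TMM scaling. Over all 17174 promoters tested the counts were 3912 and 7601, and over 11253 CpG-rich ones 3444 and 6846.

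The members with the smallest p-values in Kdm2a/b-JmjC were Rpl26, Rpl23 and Rpl36al. For Rpl26, a protein at the exit of the peptide tunnel, the UNT libraries gave 280, 306 and 225 calibrated reads and the TAM libraries 217, 195 and 199. Every TAM library was below every UNT library. The median over all promoters of this line did not overlap either, at 69.7 to 73.4 in UNT and 56.4 to 65.1 in TAM libraries. The share of all promoters without overlap was not counted in any line. Members named for small p-values in the same libraries are likely to lack overlap, so this is no separate support. The log2 fold change of Rpl26 was -0.40 ± 0.13 (SE), with a limma adjusted p of 0.0885, and -0.19 with TMM scaling. Rpl23 gave 204, 201 and 192 in UNT and 145, 135 and 160 in TAM cells, again without overlap. Its log2 fold change was -0.44 ± 0.14, with a limma adjusted p of 0.0928, and -0.24 with TMM scaling. Rpl36al, which shares reads with Mgat2, gave 226, 211 and 202 against 178, 150 and 159. The groups did not overlap, and its log2 fold change was -0.39 ± 0.14 with a limma adjusted p of 0.118, and -0.19 with TMM scaling. Of the named genes, Rps3 had a log2 fold change of -0.35, Rpl5 of -0.37, Rps6 of -0.31 and Rpl3 of -0.29, with limma adjusted p-values of 0.16 to 0.221. Rplp2 stood on the other side, at 0.15. Without TAM replicate 1, 1 of the 74 promoters, Rps26, passed both thresholds with a limma adjusted p of 0.0377, when 607 promoters passed in all. Rps26 lies outside the rule for named genes and was chosen after its values were seen.

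In Kdm2a/b-CXXC cells 59 of 73 promoters had a higher and 14 (19.2%) a lower mean log2 level after tamoxifen. Of all promoters tested 32% were lower, and of CpG-rich ones 28.5%. Of the 73, 2 (2.74%) were higher at an unadjusted p under 0.05, against 3.58% of all promoters tested, while none was lower, against 1.07%. The 2 were Rps15, near the decoding site, and Rpl4, which lines the peptide tunnel. edgeR gave 3 that were higher and none lower, and DESeq2 2 and none, with 3.81% and 3.73% of all higher. With TMM scaling 2 were lower and 3 higher, against 4.97% and 4.67% of all. Without TAM replicate 4 there were 6 higher, with 12.1% of all. Without UNT replicate 1, UNT replicate 4 or TAM replicate 3 there was 1 higher, with 2.52%, 2.32% and 3.68% of all. Lower were 2 without TAM replicate 1 and 1 without TAM replicate 2, with 3.77% and 1.04% of all. Rps15 gave 103, 113, 124 and 143 calibrated reads in UNT and 189, 178, 163 and 148 in TAM cells. All TAM libraries were above all UNT libraries, with a log2 fold change of 0.49 ± 0.18 and a limma adjusted p of 0.996. With TMM scaling the log2 fold change of Rps15 was 0.41. Rpl4 gave 65.2, 72.7, 71.2 and 57.1 against 100, 80.6, 98.8 and 85.1, also without overlap, with a log2 fold change of 0.45 ± 0.21. Rps15 and Rpl4 were named for small p-values in these libraries, so the lack of overlap is no separate support. Rpl21 gave 133, 118, 129 and 108 against 227, 166, 147 and 104, and here the groups overlapped because TAM replicate 4 was the lowest of the 8. Its log2 fold change of 0.34 became 0.16 without TAM replicate 1 and 0.54 without TAM replicate 4. TAM libraries of this line spread widely, from a median of 124 to 187 calibrated reads over the ribosomal protein promoters, against 133 to 143 in UNT libraries. The 95% interval lay within 1.4-fold at 38 of 73 promoters, and at 64 with TMM scaling. Over all 16413 promoters tested the counts were 4883 and 9531, and over 11253 CpG-rich ones 4413 and 8355.

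In Kdm2a-CXXC cells 66 of 73 promoters (90.4%) had a lower mean log2 level after tamoxifen. The share was 81.2% of all promoters tested and 90.8% of CpG-rich ones. Of the 73, 3 (4.11%) were lower at an unadjusted p under 0.05, against 8% of all, and none was higher, against 0.395%. edgeR gave 2 lower and DESeq2 4, against 7.91% and 6.55% of all, and none was higher with either. With TMM scaling none was lower and 1 was higher, against 3.51% and 2.69% of all. With the replicate number as a block 15 were lower, and so were 21.4% of all. Rpl23 gave 238, 245 and 225 calibrated reads in UNT and 182, 164 and 193 in TAM cells, without overlap, with a log2 fold change of -0.39 ± 0.18 and a limma adjusted p of 0.582. Rps15 gave 198, 189 and 203 against 123, 160 and 171, a log2 fold change of -0.39 ± 0.19, which was -0.25 without TAM replicate 1 and -0.22 with TMM scaling. Here too every TAM library was below every UNT library. Rpl23 and Rps15 were named for small p-values in these libraries, so the lack of overlap is no separate support. Without TAM replicate 3, 18 of 73 promoters were lower at an unadjusted p under 0.05, as were 22.2% of all. Without any other single library there were 0 to 2, with 2.41% to 8.64% of all, and 0 without UNT replicate 2, with 3.67%. The 95% interval lay within 1.4-fold at 21 of the 73, and at 65 with TMM scaling. Over all 17727 promoters tested the counts were 2669 and 9196, and over 11256 CpG-rich ones 2335 and 8088.

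In Kdm2b-CXXC cells 55 of 73 promoters had a higher and 18 (24.7%) a lower mean log2 level after tamoxifen. Of all promoters tested 28.9% were lower, and of CpG-rich ones 25.8%. None was higher or lower at an unadjusted p under 0.05, against 0.519% and 0.151% of all. The same held with edgeR and DESeq2. With TMM scaling 1 was lower and 1 was higher, against 4.36% and 3.43% of all. The lowest limma adjusted p of the 73 was then 0.211. With the replicate number as a block 1 was lower and 5 were higher, against 1.07% and 8.89% of all. The libraries of this line were the most variable on the calibrated scale. The median over the ribosomal protein promoters was 260, 159 and 187 calibrated reads in UNT libraries and 274, 177 and 183 in TAM libraries, so that replicate 1 was the highest in both groups. The median SD between replicates at the 69 promoters was 0.39 on the log2 scale, against 0.17 to 0.23 in the other lines, and 0.13 with TMM scaling. The 95% interval therefore lay within 1.4-fold at none of the 73 promoters on the calibrated scale and at 67 with TMM scaling. Over all 17930 promoters tested the counts were 0 and 10127, and over 11258 CpG-rich ones 0 and 8819. The members with the smallest p-values were Rpl3l, Rpl6 and Rpl13a. The downstream Rpl3l interval (chr17:24732485-24732884) gave 16.1, 9.21 and 7.9 against 22.3, 17.7 and 15.5, Rpl6 gave 158, 103 and 137 against 128, 78.9 and 90.6, and Rpl13a gave 385, 255 and 291 against 525, 345 and 385. UNT and TAM libraries overlapped in all 3 on the calibrated scale, and the limma adjusted p was 1 for each. The log2 fold changes were 0.74, -0.43 and 0.43, and with TMM scaling 0.64, -0.53 and 0.32.

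The other genes of protein synthesis had changes of similar size. In Kdm2a/b-JmjC, 14 of 74 mitochondrial ribosomal protein promoters, 15 of 61 translation factor promoters and 9 of 42 assembly gene promoters were lower at an unadjusted p under 0.05 and none was higher, with median log2 fold changes of -0.18, -0.22 and -0.19. In Kdm2a-CXXC 5 of 74, 6 of 60 and 2 of 42 were lower, and 1 translation factor promoter was higher. None of these promoters was called by limma in any line. Fau and Rack1 had log2 fold changes of 0.17 and -0.095 in Kdm2a/b-JmjC, with limma adjusted p-values of 0.558 and 0.71.

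Whether the change after tamoxifen differed between lines was tested directly. Between Kdm2a/b-JmjC and Kdm2a/b-CXXC the difference had a median of -0.32 on the log2 scale over the ribosomal protein promoters and -0.30 over all 16160 promoters tested. Limma called 0 of 73, with 0% of all called, and 5 of the 73, Rpl26, Rps10, Rps3, Rps15 and Rpl36al, had an unadjusted p under 0.05, against 14.6% of all. With TMM scaling the medians were -0.031 and -0.0084 and again 0 were called. Rpl35, Rps23, Rpl26, Rplp2, Rpl39l and Rps10 then had an unadjusted p under 0.05, 6 of the 73, against 6.78% of all. The difference was below 0 at 2 of these 6 and above 0 at 4. On the calibrated scale it was below 0 at all 5. Between Kdm2a-CXXC and Kdm2b-CXXC the medians were -0.22 and -0.28 and 0 of 73 were called, with 0% of all, and none had an unadjusted p under 0.05, against 1.81% of all. With TMM scaling the medians were 0.054 and -0.0063, 0 were called, and Rpl6, Rpl36al and Rpl22l1 had an unadjusted p under 0.05, against 6.06% of all.

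Separately from treatment, single ribosomal protein promoters differed in their share of promoter reads between lines. Chromosomes 1, 3, 8 and X were looked at because earlier results of these data pointed to them. The share of a promoter in a line was compared on the log2 scale with the mean share in the other 3 lines, with the SD over the libraries of the line. The Kdm2a/b-CXXC line was made from the Kdm2b-CXXC line, so the lines compared are not all independent. In Kdm2a/b-JmjC (n = 6 libraries) Rpl13 on chromosome 8 was higher by 0.44 ± 0.16, where the median of all 1037 chromosome 8 promoters was 0.35. It was higher in UNT (0.45) and in TAM cells (0.43). Rpl36a on chromosome X was higher by 0.61 ± 0.20, Rpl10 by 0.17 ± 0.15 and Rpl39 by 0.12 ± 0.19, with a median of 0.35 over chromosome X promoters. The low Rps4x interval, on the same chromosome, was higher by 0.91 ± 0.47. Rpl7 and Rpl31 on chromosome 1 were higher by 0.53 ± 0.29 and 0.15 ± 0.12, with a median of 0.41. In Kdm2a-CXXC (n = 6) Rpl22l1 and Rps3a1 on chromosome 3 were higher by 0.55 ± 0.16 and 0.33 ± 0.23, where the median of chromosome 3 promoters was 0.26.

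Rpl31 and Rpl7, although on the same chromosome, went opposite ways in Kdm2a-CXXC, at 0.69 ± 0.12 and -0.23 ± 0.21. Over all 74 promoters the median shift was -0.0057 in Kdm2a/b-JmjC and -0.021 in Kdm2a-CXXC. Promoters on other chromosomes also differed. Rpl32 (chromosome 6) and Rps16 (chromosome 7) were higher in Kdm2a/b-CXXC, by 0.57 ± 0.12 and 0.54 ± 0.14 (n = 8), and lower in Kdm2a/b-JmjC, by values of -0.37 ± 0.14 and -0.45 ± 0.20. Rpl13, Rpl31, Rps3a1, Rpl32 and Rps16 lie outside the rule for named genes and were chosen after their values were seen. These shifts are descriptions without a test, and the part of the chromosome-wide shifts in those of single promoters was not tested.

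**Figure D5:**
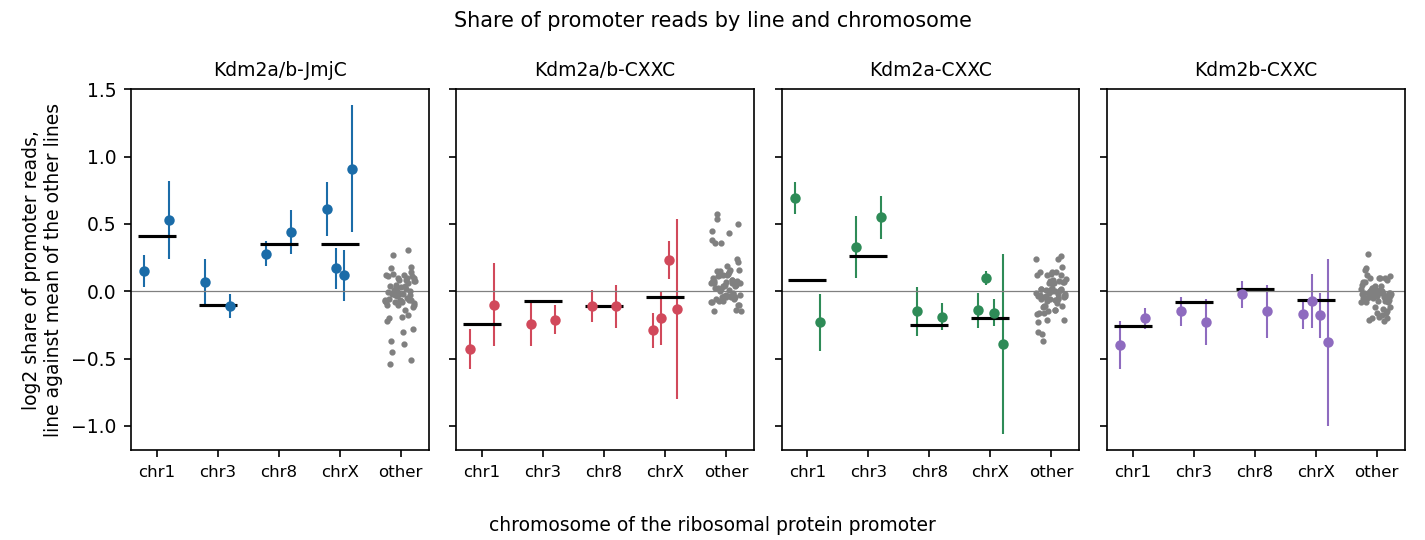
Log2 share of promoter reads in each line against the mean of the other 3 lines (vertical axis) for ribosomal protein promoters on chromosomes 1, 3, 8 and X (coloured, with the SD over libraries) and on other chromosomes (grey), with the median of all promoters of the chromosome as a dash. On chromosome 8 in Kdm2a/b-JmjC the promoters lie near the median of 0.35, with Rpl13 at 0.44.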

How the data were processed

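cATAC-seq was analysed in 26 libraries, and the 26 matching libraries of genomic DNA, from which the spike-in ratio was corrected, were not analysed here. Bowtie 2 alignment by the authors was to mm10 joined with dm6, and they left out multiply mapped reads, duplicates (SAMtools), mitochondrial reads and regions of artificially high signal, and counted reads over 400 bp intervals. Each deposited library value is a signal, reads divided by a DESeq2 size factor from Drosophila reads. There was 1 table for each of the 4 lines, normalised separately. The deposited tables also hold a mean, log2 fold changes, standard errors, test statistics and p-values of the authors' own comparison, which were not used.

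Whole reads were recovered from the steps between values (100% within 0.02, size factors 0.718 to 1.41). The main test was limma 3.58.1 (trend option) on log2(calibrated reads + 1), a scale that understates changes at low levels, after the edgeR 4.0.16 filterByExpr on recovered reads. 74 ribosomal protein promoters passed this filter in Kdm2a/b-JmjC and 73 in each other line, where Rps4x did not. Alternatives were TMM and median-of-ratios scaling, a pseudocount of 8, no filter, edgeR's quasi-likelihood test and DESeq2 1.42.0 on the recovered reads, a replicate block, leaving out each library and, chosen after seeing the data, the block with TMM scaling and the members at 50 calibrated reads or more. Windows of 80 bp (step 10) were matched to the genome with minimap2 2.31-r1302. Symbols were matched for 99.6% of identifiers.

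The members and lists were chosen with earlier results of these data known. Named with values were a list of well-known proteins and paralogues, the 3 highest and 3 lowest promoters, in each line the 3 with the smallest unadjusted p where none was called, and Fau and Rack1. Some genes that this rule takes are not reported here. Rpl10l, Rps27 and Rps4l were not analysed here. Coordinates are 1-based. PCR duplicates were removed without molecular identifiers, so counting error understates the spread.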

Additional observations from a re-analysis of the deposited data

Results flagged for a closer look

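At Rpl39l, Kdm2a/b-CXXC TAM replicate 3 gave 15.6 calibrated reads, set apart from the other 3 libraries of its group, which gave 23.3 to 23.8. Chance alone sets about 1 group in 20 apart in this way. Rps15 had fold changes of opposite sign in 2 lines, in each without overlap of UNT and TAM libraries. Its log2 fold change was 0.49 in Kdm2a/b-CXXC (0.41 with TMM scaling). In Kdm2a-CXXC it was -0.39 (-0.25 without TAM replicate 1, -0.22 with TMM scaling). In both lines Rps15 was named for its small p-value in the same libraries, so the lack of overlap is no separate support. Neither passed the adjusted threshold, and the difference between these lines was not tested.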

How the results depend on the processing

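The number of ribosomal protein promoters called was 0 in each line under all alternatives except 1: leaving out each library in turn gave 0 to 1 in Kdm2a/b-JmjC and 0 in the other lines. Scaling moved the medians of the log2 fold change. In Kdm2a/b-JmjC the median was 0.028 with TMM scaling, 0.031 with median-of-ratios scaling and 0.028 with the replicate block and TMM scaling. In Kdm2a-CXXC it was -0.0042, 0.0003 and -0.0042. Leaving out each library gave medians of -0.22 to -0.11 in Kdm2a/b-JmjC, -0.0019 to 0.18 in Kdm2a/b-CXXC, -0.25 to -0.079 in Kdm2a-CXXC and -0.12 to 0.27 in Kdm2b-CXXC. The difference from the median of all promoters was 0.007 to 0.054, -0.0032 to 0.023, -0.013 to 0.03 and -0.032 to 0.015, and in Kdm2a/b-JmjC it was 0.05 against CpG-rich promoters. The cause was not tested. Where an arm of 3 lost a library, the remaining arm shared the pooled spread.

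Over promoters, the deviations of libraries with the same replicate number were hardly correlated (-0.009 to 0.073 over 13 pairs), a measure that does not register a shift of a whole library. The median over all promoters was lowest in replicate 1 and highest in replicate 3 in both groups of Kdm2a-CXXC, and highest in replicate 1 in both groups of Kdm2b-CXXC. The labels tie the numbers to no shared culture or day, although in Kdm2a/b-JmjC each of 3 pairs correlated best with its own number, a hint from the data. With the replicate block 0 ribosomal protein promoters were called in each line, with medians of -0.18, 0.10, -0.18 and 0.077. Over all promoters it called 62 in place of 13 in Kdm2a/b-JmjC, 188 in place of 0 in Kdm2a-CXXC and 5 in place of 0 in Kdm2b-CXXC. Depth limits the 5 low intervals most, with untreated means of 7.24 to 25.8 calibrated reads.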
